A study of Mus musculus with 12 samples.

Results

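The genes described here are 9 that encode the RNA-degrading enzymes of the RNA exosome, the SKI complex that feeds RNA to it in the cytoplasm, and the factors that bridge it to stalled ribosomes, in mouse blastocysts and embryonic stem (ES) cells with and without Dis3l. They were chosen by gene symbol: the nucleases Dis3l, Dis3 and Exosc10, the related nuclease Dis3l2, the SKI complex genes Skiv2l, Ttc37 and Wdr61, and the bridging genes Hbs1l and Pelo. All 9 were found in both deposited tables, among 45706 genes listed for blastocysts and 13009 listed for ES cells.

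The RNA exosome is a ring of catalytically inert subunits through which RNA is threaded, 3′ end first, to a bound nuclease. DIS3L is the nuclease of the cytoplasmic exosome, DIS3 that of the nuclear complex, and EXOSC10 is a second nuclear enzyme, whereas DIS3L2 works without the ring and prefers RNA tailed with uridines. In the cytoplasm the SKI complex, made of the helicase SKIV2L, the scaffold TTC37 and the propeller protein WDR61, unwinds messenger RNA for the exosome. PELO and HBS1L recognise ribosomes that have stopped on a broken or endless message, whose RNA is then degraded by the same machinery.

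Dis3l knockout and wild-type samples were compared in 2 materials, with 3 samples per group and 12 samples in all. The blastocyst groups, Dis3L WT and Dis3L KO, were single embryos collected 96 h after the ovulation-inducing hormone hCG was given to superovulated females. The ES cell groups, mES cells Dis3L WT and mES cells Dis3L KO, were pluripotent lines derived and grown on inactivated mouse embryonic fibroblasts with leukaemia inhibitory factor. The knockout allele, the deleted exons, the strain, the sex of the embryos and the number of lines are not given in the sources used here. The question addressed was what changes in RNA when Dis3l is lost.

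The messages of the 3 nucleases of the DIS3 family share little sequence. The longest identical runs between their coding sequences are shown, since they set how long a read must be to tell the genes apart. In each line the shared run is in capitals, 20 bases on either side are in lower case, and the sequence is the sense strand, 5′ to 3′, from GENCODE M21 on GRCm38. The longest run shared by Dis3l and Dis3 was 14 bases, that of Dis3l and Dis3l2 was 13 bases, and that of Dis3 and Dis3l2 was 20 bases.
Dis3l, coding bases 1193 to 1246: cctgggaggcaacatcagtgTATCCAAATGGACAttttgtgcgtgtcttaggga
Dis3, coding bases 1211 to 1264: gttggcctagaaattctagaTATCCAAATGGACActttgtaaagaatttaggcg
Dis3l, coding bases 2073 to 2125: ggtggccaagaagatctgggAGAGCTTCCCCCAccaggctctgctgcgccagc
Dis3l2, coding bases 1549 to 1601: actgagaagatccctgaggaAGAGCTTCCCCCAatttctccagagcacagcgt
Dis3, coding bases 2235 to 2294: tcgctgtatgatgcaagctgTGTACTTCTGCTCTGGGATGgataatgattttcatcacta
Dis3l2, coding bases 2034 to 2093: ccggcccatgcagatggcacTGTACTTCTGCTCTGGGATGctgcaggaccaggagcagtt
Of the 50-base windows of the Dis3l exons, 0 of 5452 occurred in the annotated exons of another gene.

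Each table gives a mean over its libraries and a log2 fold change, and neither names its libraries or says which genotype is the numerator. The whole reads of each library were therefore recovered from the means, as described under the processing, and the libraries are called count columns. A column is on the positive side if it raises the authors' fold changes and on the negative side if it lowers them, and its number is only a name. No column was assigned to a genotype or a sample, and the positive side of one table need not be the genotype on the positive side of the other, so no test was run over them, and every p-value is the authors'. The blastocyst means resolved into 6 columns, 3 on each side, and the ES cell means into 4 columns, 2 on each side, although the labels list 6 ES cell samples. Normalised reads are whole reads divided by the column's size factor, which ran from 0.695 to 1.62 in blastocysts and from 0.759 to 1.25 in ES cells. Over the 12137 ES cell genes with a mean of at most 350, the columns held 631863 to 1036406 reads.

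None of the 9 genes passed the threshold used here in blastocysts, an authors' adjusted p under 0.05, which 0.0986% of the 15209 tested genes passed. In ES cells 0 of the 8 tested genes passed it, against 0.261% of 10739 tested genes, and Pelo was too weakly detected to be given an adjusted p. At an unadjusted p under 0.05 the counts were 0 of 9 in blastocysts, against 6.21% of tested genes, and 1 of 8 in ES cells, against 5.62%. The gene at that level in ES cells was Dis3l, the targeted gene, lower on the positive side. In each material 5 of the 9 log2 fold changes were positive and 4 were negative. The median log2 fold change in the authors' deposited table was 0.25 over the 9 genes in blastocysts, beside -0.04 over all tested genes. In ES cells it was -0.04 over the 8 tested genes, beside -0.0001 over all tested genes.

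The absence of a call leaves room for sizeable differences. In the authors' deposited table for blastocysts, the 95% intervals of the 8 genes other than Dis3l reached up to 3.17-fold higher, for Ttc37, and down to 4.36-fold lower, for Pelo. The ES cell fold changes appear shrunken towards 0, since no standard error in that table exceeded 0.332. Their sizes are therefore not set against those in blastocysts.

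**Figure D1:**
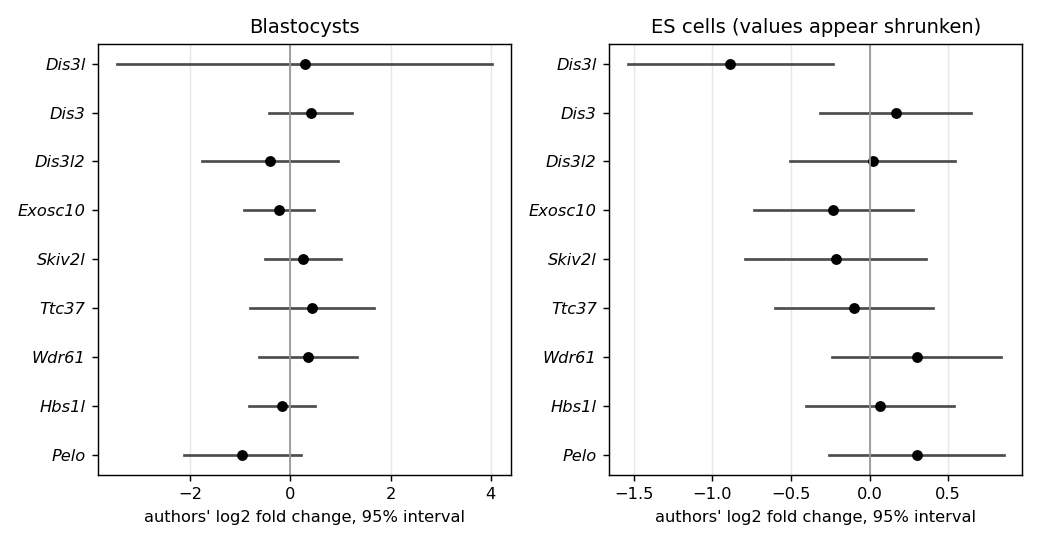
Log2 fold change (point) and 95% interval (line) of each of the 9 genes, from the authors' deposited tables, in blastocysts on the left and ES cells on the right, with separate horizontal scales. Dis3l in ES cells, at -0.88, has the only interval that leaves out 0, and Dis3l in blastocysts has the widest, from -3.46 to 4.03.

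Dis3l lies on chromosome 9 of GRCm38 from 64306756 to 64341288 on the minus strand. In ES cells its sides stood apart: the positive-side columns held 14 and 8 reads, against 39 and 39 on the other side. After scaling, these were 11.2 and 10.5 against 37.1 and 37.7 normalised reads. The columns of one side were thus nearly equal, and the positive side held less than the negative side in all of them. The means, 10.9 and 37.4 normalised reads, give a log2 ratio of -1.78. In the authors' deposited table the log2 fold change was -0.88 with a standard error of 0.33 (DESeq2 Wald p = 0.00778, adjusted p = 0.445). Sides apart in that direction were found for 20.8% of 9867 tested ES cell genes, so separation of the columns alone does not mark Dis3l.

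Dis3l was not at 0 on either side in ES cells, with at least 8 reads in every column. Where in the gene those reads fell is not known from a gene total. Markers of the feeder fibroblasts were measured because these cells are in the culture: 7 of 7 (Col1a1, Col1a2, Col3a1, Thy1, Postn, Dcn and Lum) were above 0. Their summed level was 237 and 208 normalised reads on the positive side, against 252 and 1536. The column at 1536 was the highest for 6 of the 7 markers, led by Col3a1 at 865 and Col1a2 at 294 normalised reads. Thy1 was lowest there, at 14.5, beside 28.5 in the other negative-side column and 30.3 and 25 on the positive side. In the column at 1536 Dis3l stood at 37.7 normalised reads, and in the column at 252 it stood at 37.1. The part of feeder RNA in the Dis3l reads was not tested.

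In blastocysts Dis3l was sparse. The positive-side columns held 26, 8 and 0 reads, against 10, 4 and 8 on the negative side. In normalised reads these were 18.6, 8.12 and 0 against 6.18, 4.46 and 11.5, so the sides overlapped and the highest and the lowest column were on the same side. Its log2 fold change in the authors' deposited table was 0.28 with a standard error of 1.91 (adjusted p = 0.997). Its 95% interval ran from 11-fold lower to 16.4-fold higher. The coefficient of variation over the 6 columns was 78.4%, and counting error alone would give 32.7% if every read were an independent observation. All of these counts were even numbers, so the counting error may be larger. No difference between the sides was detectable within the spread of the columns, and neither side lacked Dis3l reads in all of its columns. The sides can therefore not be matched to the labelled genotypes through the targeted gene in this material.

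As a measure that needs no size factor, Dis3l was also expressed as a share of the reads of Dis3l and Dis3 together. In ES cells the share was 4.40% (exact Clopper-Pearson 95% interval 2.43 to 7.28) and 3.64% (1.58 to 7.04) on the positive side. The columns of the negative side gave 15.8% (11.5 to 20.9) and 12.8% (9.28 to 17.1). The intervals of the sides did not overlap in ES cells. In blastocysts the shares were 8.97% (5.94 to 12.9), 2.42% (1.05 to 4.72) and 0 of 236 reads (exact interval 0 to 1.55, where 3 reads of 236 would be 1.27%) on the positive side. On the negative side they were 2.70% (1.30 to 4.91), 2.72% (0.746 to 6.82) and 5.19% (2.27 to 9.98). The highest and the lowest share in blastocysts, both on the positive side, had intervals that did not overlap each other, so columns of the same side differed beyond counting error. Intervals and limits cover counting error only, since amplified reads are not independent molecules. Of the 48 blastocyst counts recovered for these genes 45 were even numbers, against 16 of 36 in ES cells, and the blastocyst intervals, which take each read as 1 observation, may be too narrow.

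**Figure D2:**
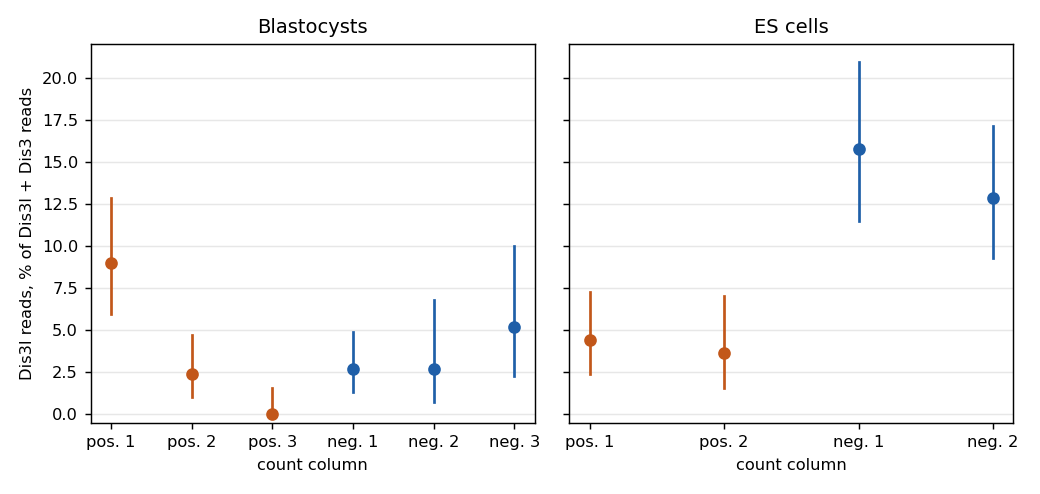
Dis3l reads as a percentage of Dis3l and Dis3 reads in each count column (point) with the exact 95% interval (line), in 6 blastocyst columns on the left and 4 ES cell columns on the right. Both positive-side ES cell columns, at 4.40% and 3.64%, lie below both negative-side columns, at 15.8% and 12.8%, while the blastocyst sides overlap.

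Dis3, the nuclease of the nuclear exosome, lies on chromosome 14 from 99075206 to 99099770 on the minus strand. It did not pass the test in either material. In ES cells its columns held 243 and 279 normalised reads on the positive side, against 198 and 256, and the sides overlapped. In blastocysts they held 188, 327 and 270 against 223, 159 and 210, again overlapping. The log2 fold change in the authors' deposited table was 0.17 ± 0.24 (standard error, adjusted p = 1.00) in ES cells and 0.40 ± 0.42 (adjusted p = 0.853) in blastocysts. The positive side was thus higher on average in both, by less than the standard error. Pibf1 overlaps 4.19% of the Dis3 exon bases on the opposite strand.

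Dis3l2, the uridine-preferring nuclease that acts without the ring, lies on chromosome 1 from 86703808 to 87050095 on the plus strand. In ES cells it was the steadiest of the 9 genes, at 130 and 136 normalised reads against 115 and 146, with a coefficient of variation of 9.78% over the columns. In blastocysts it varied over a wide range, at 47.1, 108 and 73.1 against 84.1, 176 and 43.2. Its highest and lowest blastocyst columns were both on the negative side. Its log2 fold change in the authors' deposited table was 0.02 ± 0.27 (adjusted p = 1.00) in ES cells and -0.42 ± 0.69 (adjusted p = 0.953) in blastocysts. The log2 ratio of the blastocyst reads turned from -0.41 to 0.26 without the negative-side column that held 158 reads.

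Exosc10, the nuclear exosome's second nuclease, lies on chromosome 4 from 148558429 to 148582401 on the plus strand. It was lower on the positive side in ES cells, at 140 and 132 normalised reads against 158 and 173, with the sides apart. The means of 135.7 and 165.4 differ by a log2 ratio of -0.29. In blastocysts it held 338, 246 and 352 against 423, 334 and 340 normalised reads, and the sides overlapped. The log2 fold change in the authors' deposited table was -0.23 ± 0.26 (adjusted p = 1.00) in ES cells and -0.23 ± 0.36 (adjusted p = 0.946) in blastocysts, so neither difference passed the test.

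None of the 3 SKI complex genes passed the test in either material. In the authors' fits all 3 had positive log2 fold changes in blastocysts, whereas in ES cells those of Skiv2l and Ttc37 were negative and that of Wdr61 was positive. Skiv2l, the helicase, lies on chromosome 17 from 34839228 to 34850210 on the minus strand. Its columns held 62.3 and 81.6 normalised reads against 96 and 79.2 in ES cells, with the sides overlapping. In blastocysts they held 245, 267 and 286 against 198, 201 and 273, and this was the least variable of the 8 genes whose blastocyst reads were resolved, at a coefficient of variation of 15.4%. Skiv2l had, in the authors' deposited table, a log2 fold change of -0.21 ± 0.29 (adjusted p = 1.00) in ES cells and 0.25 ± 0.39 (adjusted p = 0.946) in blastocysts.

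Ttc37, the scaffold on which the helicase sits, lies on chromosome 13 from 76098734 to 76190316 on the plus strand. ES cell columns held 163 and 204 normalised reads against 172 and 225, a difference smaller than that within either side. Blastocyst columns held 207, 203 and 110 against 244, 93.6 and 46. The negative-side embryos alone spanned a 5.29-fold range, the full range of the 6 columns. The log2 fold change of Ttc37 in the authors' deposited table was -0.10 ± 0.26 (adjusted p = 1.00) in ES cells and 0.43 ± 0.63 (adjusted p = 0.936) in blastocysts. The log2 ratio of its blastocyst reads, 0.44, became 1.31 without the negative-side column of 394 reads and 0.04 without that of 32 reads.

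Wdr61, the propeller protein that also belongs to the transcription-linked Paf1 complex, lies on chromosome 9 from 54714735 to 54734519 on the minus strand. In ES cells it was higher on the positive side, at 117 and 140 normalised reads against 101 and 95.7, with the sides apart. In blastocysts it held 303, 116 and 215 against 199, 118 and 178, and the sides overlapped. The authors' deposited table gave log2 fold changes of 0.30 ± 0.27 (adjusted p = 1.00) in ES cells and 0.35 ± 0.50 (adjusted p = 0.933) in blastocysts. Without the positive-side column of 424 reads, the log2 ratio of its blastocyst reads went from 0.35 to 0.0003. Dnaja4, a chaperone gene on the opposite strand, covers 33.9% of the Wdr61 exon bases. The mean of Dnaja4 in the authors' deposited tables was 1.24 in blastocysts and 9.92 in ES cells, below that of Wdr61 (188 and 113). These means do not show whether reads from the shared bases were dropped or credited elsewhere, which depends on the counting rule.

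Hbs1l, the GTPase partner of Pelo, lies on chromosome 10 from 21295979 to 21368898 on the plus strand. The gene has 10 annotated transcripts, 6 of them protein-coding, including in mammals a short form that links the exosome to the SKI complex, and a gene total does not tell the forms apart. In ES cells its columns held 275 and 324 normalised reads against 247 and 319, with the sides overlapping. Its ES cell mean in the authors' deposited table was 291, with a log2 fold change of 0.07 ± 0.24 (adjusted p = 1.00). In blastocysts its mean was 827 and the log2 fold change in the authors' deposited table -0.17 ± 0.34 (adjusted p = 0.969), the smallest standard error of the 9 genes there. Its blastocyst reads could not be resolved into columns, because 11 sets of whole reads returned both the mean and the fold change. Of the 50-base windows of its messages, 27.9% also occur in Gm9923, a processed pseudogene with a blastocyst mean of 0.480. That mean does not show whether reads matching both genes were dropped, which depends on the counting rule.

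Pelo, which recognises the empty site of a stalled ribosome, was the gene with the largest fold change of the 9 in blastocysts, and it did not pass the test. It held 114, 77.1 and 93.7 normalised reads on the positive side, against 226, 64.7 and 265. A pair of negative-side columns stood above all others, and the remaining one was the lowest of all. The means of 95 and 185 differ by a log2 ratio of -0.96. The log2 fold change in the authors' deposited table was -0.96 ± 0.59 (DESeq2 Wald p = 0.105, adjusted p = 0.811). In ES cells Pelo was close to the detection limit, with 15 and 5 reads against 5 and 3. After scaling these were 12 and 6.58 against 4.75 and 2.9, so the positive side was higher in both columns, the opposite sign to blastocysts. The direction of each comparison is not stated, so the positive sides of the materials need not be the same genotype. The authors' deposited table gave a log2 fold change of 0.30 ± 0.28 (DESeq2 Wald p = 0.291) in ES cells, with no adjusted p, and the difference between the materials was not tested.

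The Pelo locus limits how these reads can be read. Pelo lies on chromosome 13 from 115088355 to 115090186 on the minus strand, with 2 exons of 1600 bases in all, inside the integrin gene Itga1 on the same strand. The predicted gene Gm49395, also on that strand, shares 739 bases, or 46.2%, of the Pelo exons, and the antisense gene Gm10734 covers 29.3% of them. Gm49395 is listed for ES cells and not for blastocysts, and Gm10734 is listed for neither. The overlap with Gm49395 may therefore weigh differently on the Pelo counts of the materials, which was not tested. Of the 50-base windows of Pelo, 60% also occur in another annotated gene, so reads from the shared parts could have been dropped or credited elsewhere, depending on the counting rule. The row of Gm49395 in the ES cell table, which names it AC175538.2, held 23 and 10 reads against 9 and 5. Itga1 held 44 and 19 reads against 16 and 8. All 3 genes on that strand were thus highest in the same ES cell column and lowest in the same one, and the part of the overlap in the Pelo values was not tested.

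**Figure D3:**
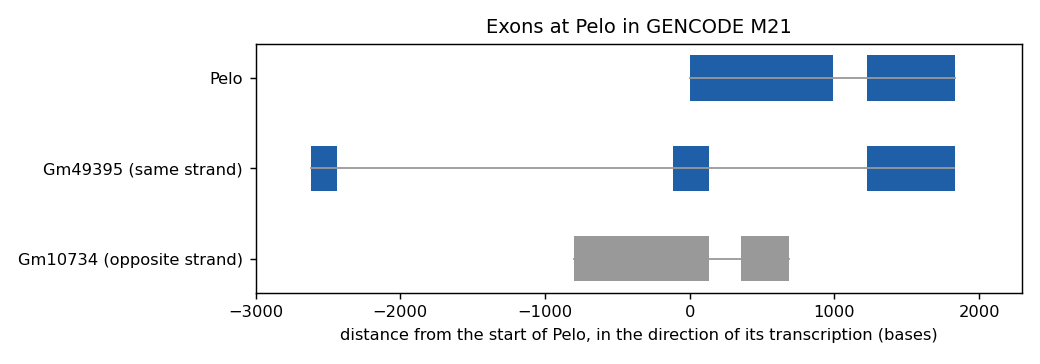
Exons (boxes) of Pelo and of the genes that share its exon bases in GENCODE M21, by distance in bases from the start of Pelo along its transcription, with genes on the Pelo strand in blue and the opposite strand in grey. The second Pelo exon, of 607 bases, is covered almost whole by an exon of Gm49395 of 606 bases.

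**Figure D4:**
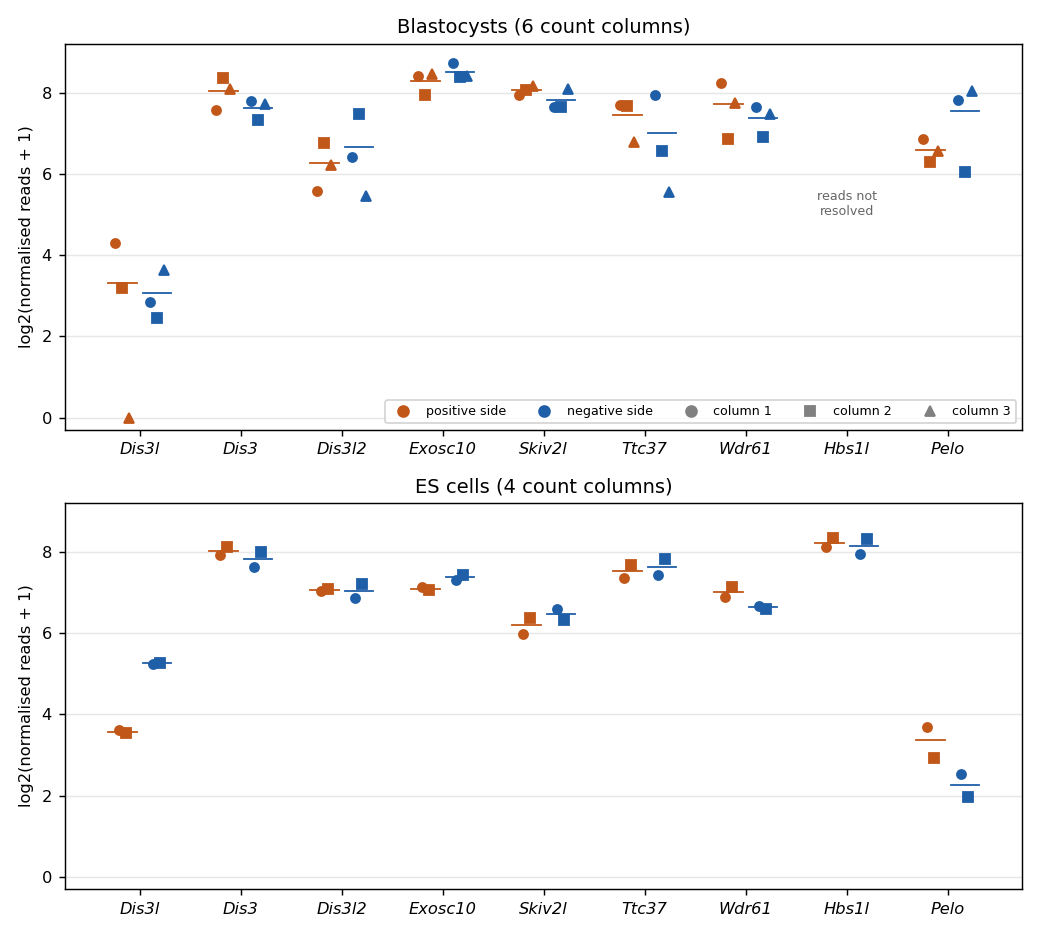
Log2 of normalised reads plus 1 for the 9 genes in each count column, in 6 blastocyst columns above and 4 ES cell columns below, with the positive side in orange, the negative side in blue and a bar at each side's mean. Dis3l is the only gene whose ES cell sides are far apart relative to the spread within them, while in blastocysts all 8 resolved genes overlap; Hbs1l has no resolved blastocyst reads.

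Across the columns, the sides were apart for 4 of the 9 genes in ES cells, Dis3l and Exosc10 lower and Wdr61 and Pelo higher on the positive side. Among 9867 tested ES cell genes 20.8% were lower and 20% higher in both positive-side columns, 40.8% in all, so this share is near the background. In blastocysts 0 of 8 genes had sides apart, and the share over all genes was not computed there. With more columns on each side than in ES cells, this count cannot be set against the ES cell share. The coefficient of variation over the columns was 9.78% to 17.5% for the 7 ES cell genes other than Dis3l and Pelo, which reached 63.5% and 59.7%. In blastocysts it ran from 15.4% for Skiv2l and 16.7% for Exosc10 through 26.2% for Dis3 and 37.0% for Wdr61 to 51.8% for Ttc37, 55.5% for Dis3l2, 60.1% for Pelo and 78.4% for Dis3l. Dis3l had the lowest mean of the 9 in blastocysts and Pelo in ES cells.

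Levels were compared between genes per kilobase of exon, on the authors' mean of normalised reads over all libraries of a material. Exon lengths are those of GENCODE M21 in both materials. In the blastocyst table Dis3 starts at 99076634 and not 99075206, and Ttc37 ends at 76187983 and not 76190316. Their blastocyst levels per kilobase, and their places, may therefore be too low. These means pool knockout and wild-type libraries, so that of Dis3l, the targeted gene, need not be the level of either genotype. In blastocysts the order was Hbs1l (137 normalised reads per kilobase), Exosc10 (94.3), Pelo (87.6), Skiv2l (49.2), Wdr61 (40.3), Dis3 (29.6), Ttc37 (12.8), Dis3l2 (9.95) and Dis3l (1.49). In this pooled mean Dis3l was the lowest of the 9, at percentile 17.7 of 13308 protein-coding genes above 0. The nuclear nuclease Exosc10 was at percentile 88.9. Exosc10 was above Pelo in 4 of 6 columns, Skiv2l above Wdr61 in 4 and Ttc37 above Dis3l2 in 4, so these neighbours did not differ beyond their spread. Pelo was above Skiv2l, and Wdr61 above Dis3, in 5 of 6 columns. Dis3 was above Ttc37, and Dis3l2 above Dis3l, in 6 of 6 columns. Hbs1l could not be set against Exosc10 by column.

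In ES cells the order was Hbs1l (48.2 normalised reads per kilobase), Exosc10 (41.9), Dis3 (31.5), Wdr61 (24.3), Ttc37 (16.2), Skiv2l (16), Dis3l2 (14.8), Dis3l (4.42) and Pelo (4.10). Exosc10 exceeded Dis3, Dis3 exceeded Wdr61, Wdr61 exceeded Ttc37 and Dis3l2 exceeded Dis3l in 4 of 4 columns. Hbs1l was above Exosc10, and Ttc37 above Skiv2l, in 3 of 4 columns. Skiv2l was above Dis3l2 in 2 of 4 columns, so this pair could not be ordered. The order of Dis3l and Pelo went with the sides. Dis3l was above Pelo in both negative-side columns, at 6.79 and 6.9 against 2.97 and 1.81 normalised reads per kilobase, and below it in both positive-side columns, at 2.05 and 1.93 against 7.48 and 4.12. Hbs1l and Exosc10 led and Dis3l was among the 2 lowest in ES cells, as in blastocysts, whereas Pelo had another place. Pelo was at percentile 87.8 of protein-coding genes in blastocysts and 27.5 of 12997 in ES cells. Gm49395, which shares Pelo exon bases, was listed for ES cells only, and its part in the place of Pelo was not tested. The lowest listed mean above 0 was 0.103 in blastocysts and 2.08 in ES cells, so these percentiles have unlike bases. The tables were also normalised separately and rest on different library preparations, so levels and percentiles are read only within each.

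**Figure D5:**
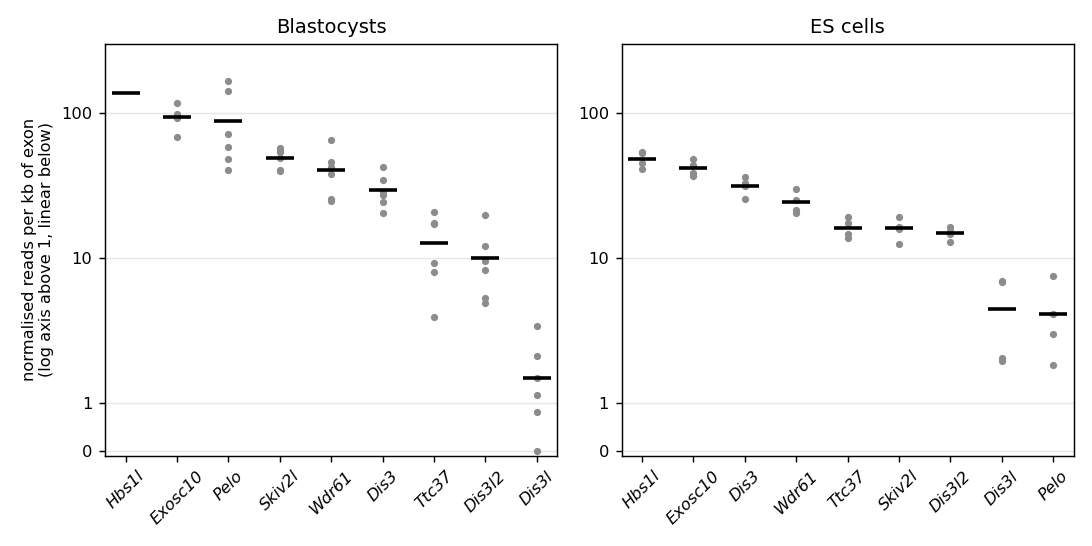
Normalised reads per kilobase of exon for the 9 genes, ordered by level within each material, with grey points for single count columns and a bar at the mean over them; the axis is logarithmic above 1 and linear below. In blastocysts Dis3l sits lowest, at a mean of 1.49, and in ES cells Dis3l and Pelo share the low end, at 4.42 and 4.10. The means pool knockout and wild-type libraries.

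The rest of the pathway was described by gene lists. Beside them, 0.0986% of all tested genes in blastocysts and 0.261% in ES cells had an adjusted p under 0.05. The median log2 fold change over all tested genes was -0.04 in blastocysts and -0.0001 in ES cells. Of the exosome ring genes, which form the channel, 0 of 8 tested in blastocysts and 0 of 9 in ES cells passed an adjusted p of 0.05, with median log2 fold changes of -0.38 and -0.01. Exosc3, a cap subunit of the ring, had the smallest p of that list in both tables. In the authors' deposited tables its log2 fold change was -1.68 ± 0.73 (DESeq2 Wald p = 0.0219, adjusted p = 0.692) in blastocysts and 0.66 ± 0.32 (p = 0.0428, adjusted p = 0.858) in ES cells. The signs were opposite, the direction of each comparison is not stated, and the difference was not tested.

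Of the nuclear exosome cofactors, which hand RNA to Dis3 and Exosc10, 0 of 11 passed in each material, with medians of 0.08 in blastocysts and -0.05 in ES cells. The smallest p belonged to Nrde2 in blastocysts, at 0.85 ± 0.41 (adjusted p = 0.769 in the authors' deposited table), and to the poly(A) polymerase Papd7 in ES cells, at -0.65 ± 0.31 (adjusted p = 0.825). Of the terminal uridylation and Dis3l2 list, 0 of 7 passed in each material, with medians of -0.17 and 0.07. Its smallest p belonged to the nuclease Eri1 in blastocysts, at -1.04 ± 0.56 (adjusted p = 0.811 in the authors' deposited table), and in ES cells to Lin28b, a binder of let-7 precursors, at 0.77 ± 0.31 (adjusted p = 0.560).

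Decay from the 5′ end, by decapping and the Xrn nucleases, is the route that runs beside the exosome. Of that list 0 of 11 genes passed in each material, with medians of 0.27 in blastocysts and 0.10 in ES cells. The smallest p belonged to the decapping activator Pnrc1 in blastocysts (1.64 ± 1.2, adjusted p = 0.811 in the authors' deposited table) and to the nuclear nuclease Xrn2 in ES cells (0.30 ± 0.22, adjusted p = 1.00). Of the Paf1 complex, the other complex of Wdr61, 0 of 5 passed in each material, with medians of 0.07 and 0.10. Rtf1 in blastocysts (0.49 ± 0.47, adjusted p = 0.817 in the authors' deposited table) and Paf1 in ES cells (0.47 ± 0.31, adjusted p = 1.00) had its smallest p.

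Of the ribosome rescue and quality control genes, which act with Pelo and Hbs1l, 0 of 16 passed in blastocysts and 1 of 16 in ES cells, lower on the positive side, with medians of 0.02 and -0.05. Over all tested ES cell genes 0.261% passed. In blastocysts Ankzf1, which releases stalled peptides, had the smallest p, at 1.39 ± 0.72 (adjusted p = 0.808 in the authors' deposited table). The gene that passed in ES cells was Usp9x, a deubiquitinase, whose mean was 3663. Its log2 fold change was -0.83 ± 0.21 in the authors' deposited table (adjusted p = 0.0424). Usp9x is on the X chromosome, where 80% of 370 tested ES cell genes had negative log2 fold changes with a median of -0.31. On the autosomes 49.0% of 10358 were negative, with a median of 0.01, and the part of this X chromosome shift in the Usp9x value was not tested.

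The labelled materials were checked by their markers. In blastocysts all 6 trophectoderm, 5 pluripotency and 4 primitive endoderm markers were above 0, with summed means of 18947, 1148 and 1773, and 6 of 7 fibroblast markers were at 0. In blastocysts 0 markers passed the adjusted threshold. An unadjusted p under 0.05, which 6.21% of tested genes had, was found for 2 of 5 pluripotency markers and 3 of 6 trophectoderm markers there. Their log2 fold changes in the authors' deposited table were -1.93 for Nanog, -1.21 for Pou5f1, -0.87 for Krt8, -0.63 for Krt18 and 0.52 for Gata3. The 5 pluripotency markers ran from -1.93 to 0.03, with 3 of them negative. The 6 trophectoderm markers ran from -0.87 to 0.64, with 3 of them negative. All 4 primitive endoderm markers were negative, from -0.77 to -0.08. The part of these differences in the values of the 9 genes was not tested. In ES cells the 5 pluripotency markers summed to 3004, the 4 listed trophectoderm markers to 143, the 2 listed primitive endoderm markers to 92.7 and the 7 fibroblast markers to 558. All 5 pluripotency markers were negative there, from -0.51 to -0.08, and all 4 trophectoderm markers, from -0.59 to -0.0015. The primitive endoderm markers ran from -0.10 to 0.16. None of these had an unadjusted p under 0.05, and their part in the values of the 9 genes was not tested. Of the fibroblast markers 0 passed the adjusted threshold and 2 (Col1a1 and Lum) had an unadjusted p under 0.05, beside 5.62% of all tested genes, with log2 fold changes between -0.92 and 0.19 in the authors' deposited table. In bulk samples fewer cells of a type and less RNA per cell cannot be told apart.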

How the data were processed

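RNA was sequenced from 12 samples in 4 groups. Per the submitters' processing notes, the tools were STAR 2.4.0b, SAMtools, bedtools, featureCounts of Subread 2.0.1 and DESeq2 1.34.0, on GRCm38. Single-blastocyst cDNA was tagmented with Tn5, and ES cell RNA went through rRNA removal and a stranded kit, per the labels' protocols. Whether the counting used strand is not given in the sources used here. The authors deposited 1 comparison table per material. Its signal column is the authors' mean of normalised read counts. Its log2 columns are the authors' log2 fold change and standard error. Its score column is the authors' Wald statistic, and its p-value columns hold the authors' p-value and adjusted p-value. Of the listed gene IDs, 45143 of 45706 in blastocysts and 12997 of 13009 in ES cells are in GENCODE M21, from which exon lengths came. Per-sample columns left aside numbered 0.

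The authors' adjusted p under 0.05 was the call. Intervals are the fold change plus or minus the normal 95% quantile of its standard error. Whole reads were recovered from the means: in a given column every read adds the same amount to a mean, so a mean has few whole-number solutions. In ES cells the solution was unique for 12137 of 12137 genes with a mean up to 350. In blastocysts, solutions were also required to return the authors' fold change, refitted at their standard error, within 4.08e-05 (log2), a limit set from 59 genes with a single solution. These steps were tested on simulated data. In blastocysts the side of a column comes from the sign of the authors' fold change of genes with a single read, in that column alone. In ES cells it comes from the sign of the column's coefficient in a regression. There the authors' fold changes of a part of the genes were regressed on the log2 normalised reads of the columns. Because labels do not say whether samples came from separate litters or lines, p-values measure only the spread between these samples. The fallback for tables without per-sample values was used in place of edgeR. The 9 genes and all lists were chosen with earlier results of these data known. The 9 genes are all named; of each other list, genes with an adjusted p under 0.05 are named, or else the one with the smallest p. Alternatives were other thresholds (0.01 and 0.1), other adjustments (no filter, mean of at least 50), a pseudocount of 1, each column left out, and the longest transcript. Calculations used Python 3.11.15, numpy 2.4.6, pandas 2.3.3, scipy 1.17.1 and numba 0.67.0.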

Additional observations from a re-analysis of the deposited data

How the results depend on the processing

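The count of changed genes among the 9 stayed at 0 in both materials at adjusted thresholds of 0.01 and 0.1 and under both other adjustments. The adjustment over genes with a mean of at least 50 left out Dis3l in both materials and Pelo in ES cells. It could therefore not have called them. At an unadjusted p under 0.05 the count was 0 in blastocysts and 1 in ES cells, where that gene was Dis3l. In that material the Dis3l log2 fold change moved from -0.88 to -1.78 as a ratio of recovered reads, and to -1.998 per Dis3 read, an alternative chosen after seeing the data. The authors' value appears shrunken, and the cause of the difference was not tested. In blastocysts the same alternatives gave 0.27 and 0.16 beside 0.28. With each count column left out, the log2 ratio of Dis3l ranged from -1.83 to -1.74 in ES cells and from -0.86 to 0.85 in blastocysts, where it turned negative without the positive-side column of 26 reads. That of Pelo ranged from 0.78 to 1.68 in ES cells and from -1.37 to -0.61 in blastocysts. In blastocysts that of Ttc37 ranged from 0.04 to 1.31, that of Wdr61 from 0.0003 to 0.65 and that of Dis3l2 from -0.78 to 0.26. In ES cells the ratio changed sign without 1 column for Dis3l2 (-0.13 to 0.21), Ttc37 (-0.30 to 0.09) and Hbs1l (-0.09 to 0.28). Dividing by the longest transcript in place of all exons exchanged Skiv2l and Wdr61 in the blastocyst order and Skiv2l and Dis3l2 in the ES cell order. No paired analysis was possible because the tables hold no per-sample values and the count columns carry no replicate number. The fewest reads lay behind Dis3l in blastocysts (56 in 6 columns) and Pelo in ES cells (28 in 4 columns). With every read taken as an independent observation, the counting error of Dis3l was 32.7%, beside a spread of 78.4% over the columns. That of Pelo was 37.8% beside 59.7%. The blastocyst figure may be too low, since most counts there were even numbers.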

Other observations

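Against Dis3l2 in place of Dis3, Dis3l made up 7.91% and 7.21% of the reads of both genes in the ES cell columns of the positive side, and 24.4% and 20.5% in the other columns. In blastocysts the positive-side shares were 28.3%, 7.02% and 0 of 64 reads (exact 95% interval 0 to 5.60, where 3 reads of 64 would be 4.69%). Those of the negative side were 6.85%, 2.47% and 21.1%.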
